A study of Capra hircus with 2 samples.

Results

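Matrix metalloproteinases (MMPs) and their tissue inhibitors (TIMPs) were examined in goat skeletal muscle at a fetal and a postnatal stage. The 5 genes were the proteases MMP2 and MMP14 and the inhibitors TIMP1, TIMP2 and TIMP3, chosen by transcript accession from 11663 accessions listed in either library. All 5 had reads in both libraries, so none was lost to a filter on low values. The symbols follow the cattle RefSeq records to which these accessions belong. The deposited lists themselves carry no gene names, and 0 of the 11663 accessions matched a reference table of goat genes (RefSeq, assembly ARS1.2), so the naming could not be checked against these files and no genomic position is given.

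The samples were longissimus thoracis, a long muscle of the back, and the animals were goats (Capra hircus) of the Chinese Xuhuai breed. A fetal library represented day 90 of a gestation period of 150 days, and another library represented goats 6 months old. Both were made from total RNA extracted with Trizol, and no treatment or genetic change is named for either. Fetuses came from goats slaughtered at an abattoir. How many animals contributed to each library is not stated in the labels. The sampling protocol entered for the older muscle is the fetal one, describing fetuses, so how the 6-month tissue was taken is unknown. Each stage had 1 library, so no difference below has a replicate check and no p-value is given. The intervals cover counting error only and compare these 2 libraries, not the stages. The labelled tissue was not checked against marker genes, because the lists hold no names.

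MMPs are zinc-dependent enzymes that cut collagens and other proteins of the extracellular matrix, and TIMPs bind their active site and block them. In muscle the matrix is laid down and remodelled during growth, fibre formation and repair, mostly by fibroblasts and other cells between the fibres. MMP14 sits in the cell membrane, where it cuts fibrillar collagen and, with TIMP2 as a bridge, activates the secreted precursor of MMP2. A transcript level says nothing about how much of an enzyme is in its active form.

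Both proteases had far more transcript in the fetal than in the 6-month library, TIMP1 and TIMP2 exceeded their 6-month levels by a smaller factor, and TIMP3 differed little. The summed RPKM (reads scaled to transcript length and to the read total of the library) of the proteases was 519 in the fetal library and 37.2 at 6 months. That of the inhibitors was 328 and 114. The summed RPKM of the proteases thus exceeded that of the inhibitors in the fetal library, and the order was the opposite at 6 months. The accessions belong to cattle records and the RNA was from goats. How evenly goat reads were assigned to records of different genes was not tested, so this order holds for RPKM only. In whole muscle RNA, fewer cells of a type and less RNA per cell cannot be told apart.

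MMP2 (NM_174745), a gelatinase that degrades basement membrane collagen and denatured collagen, had 9568 fetal reads and 575 at 6 months. Its RPKM was 318 (95% interval 311 to 324) in the fetal library and 26.8 (24.6 to 29.0) at 6 months. The fetal level was thus the higher one, and the intervals were far apart. The share of reads was 11.9-fold higher in the fetal library (exact conditional interval 10.9 to 12.9). By RPKM, MMP2 ranked 245 of the 11393 accessions of the fetal library and 2055 of the 10850 at 6 months.

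MMP14 (NM_174390), the membrane-bound collagenase, had 4656 fetal reads and 172 at 6 months. Its RPKM was 201 (196 to 207) against 10.4 (8.92 to 12.1). This was the largest relative difference among the 5 genes, and its fetal read share was 19.3-fold the 6-month share (16.6 to 22.6). MMP14 stood at rank 368 among fetal transcripts and at rank 3845 at 6 months, where it was the lowest of the 5.

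TIMP1 (NM_174471), a secreted inhibitor that acts weakly on MMP14, had 1803 fetal reads and 393 at 6 months. Its RPKM was 174 (166 to 182) and 53.2 (48.1 to 58.7), and its fetal read share was 3.27-fold the 6-month share (2.93 to 3.66). Although lower than in the fetal library, TIMP1 was the most abundant of the 5 at 6 months. It ranked 425 in the fetal library and 1145 at 6 months.

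TIMP2 (NM_174472), the inhibitor that also takes part in MMP2 activation, had 1774 fetal reads and 391 at 6 months. Its RPKM was 120 (115 to 126) and 37.1 (33.5 to 41.0), and its fetal read share was 3.24-fold the 6-month share (2.90 to 3.62). The factor was close to that of TIMP1. The rank of TIMP2 was 614 in the fetal library and 1583 at 6 months.

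TIMP3 (NM_174473), an inhibitor that stays bound to the matrix and also blocks some ADAM and ADAMTS proteases, had 922 fetal reads and 459 at 6 months. Its RPKM was 33.5 (31.4 to 35.7) and 23.4 (21.3 to 25.6), and its fetal read share was 1.43-fold the 6-month share (1.28 to 1.61), a direction that was not resolved once the libraries were centred on their median ratio (0.96, interval 0.86 to 1.08). TIMP3 kept nearly the same place in both libraries, at rank 2148 and rank 2289.

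**Figure D1:**
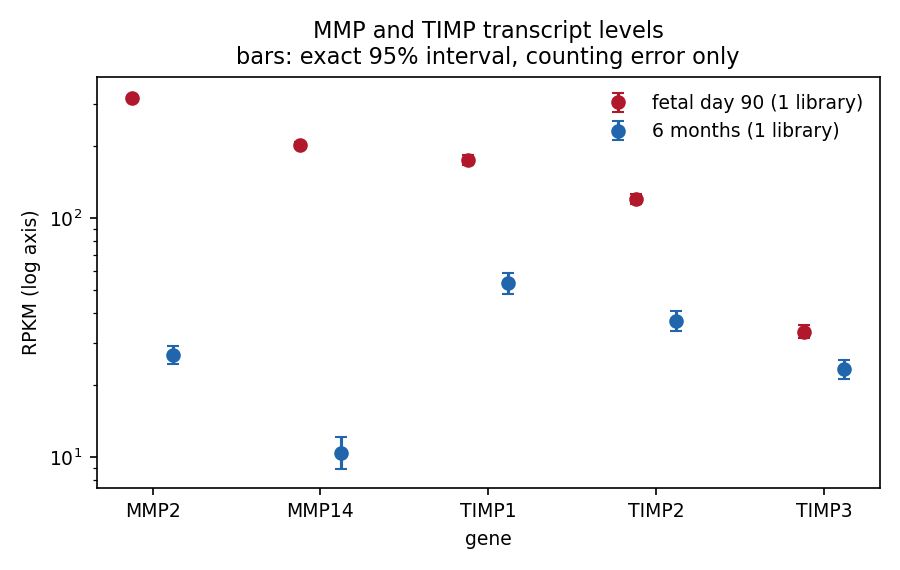
RPKM (log axis) of the 5 genes in the fetal day 90 library (red) and the 6-month library (blue), 1 library each, with exact 95% intervals for counting error. MMP2 and MMP14 lie at 318 and 201 in the fetal library and at 26.8 and 10.4 at 6 months, whereas TIMP3 lies at 33.5 and 23.4, an order that is not resolved after median centring.

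The order of the genes differed between the libraries. In the fetal library the order from high to low was MMP2, MMP14, TIMP1, TIMP2 and TIMP3, and no neighbouring intervals overlapped. At 6 months the order was TIMP1, TIMP2, MMP2, TIMP3 and MMP14. There the intervals of MMP2 (24.6 to 29.0) and TIMP3 (21.3 to 25.6) overlapped, so their order was not resolved at this depth. These levels are per length of the listed transcript and depend on that length. With levels taken per covered base, MMP14 (202) and TIMP1 (204) changed places in the fetal library. The covered length of a gene was here the larger of both libraries, and it was used for both.

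The differences were set beside those of all transcripts, as the fetal value of log2(RPKM + 1) minus the 6-month value. A gene was called higher when this difference was at least 1, about 2-fold. The comparison took in the 9705 accessions that reached an RPKM of 1 in at least 1 library. Of the 5 genes, 4 were called in favour of the fetal library and 0 in favour of 6 months. Among all accessions compared, the shares were 35.1% for the fetal library and 9.46% for 6 months. Calls in favour of the fetal library were thus common, and the count of 4 of 5 has to be read against that share. In the bands of mean RPKM that hold the 5 genes, fetal calls made up 32.4% (10 to 100, with TIMP2 and TIMP3) and 28.7% (100 to 1000, with the others). The median difference was 1.69 log2 units over the 5 genes and 0.61 over all accessions compared.

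The proteases lay further out than the inhibitors. The difference was 4.15 log2 units for MMP14, and 70 of the 9705 accessions (0.72%) had a larger one. It was 3.52 for MMP2, with 149 accessions (1.54%) above it. With the pseudocount in log2(RPKM + 1), accessions of low fetal RPKM could not exceed these differences whatever their fold. Both shares are thus over all accessions compared, not over accessions of like level. TIMP1 and TIMP2 had differences of 1.69 and 1.67, exceeded by 15.7% and 16.1% of accessions. TIMP3 had a difference of 0.50, and 54.1% of accessions exceeded it. At a threshold of 2 log2 units, which 10.8% of all accessions reached in favour of the fetal library, MMP2 and MMP14 were still called and the TIMPs were not.

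**Figure D2:**
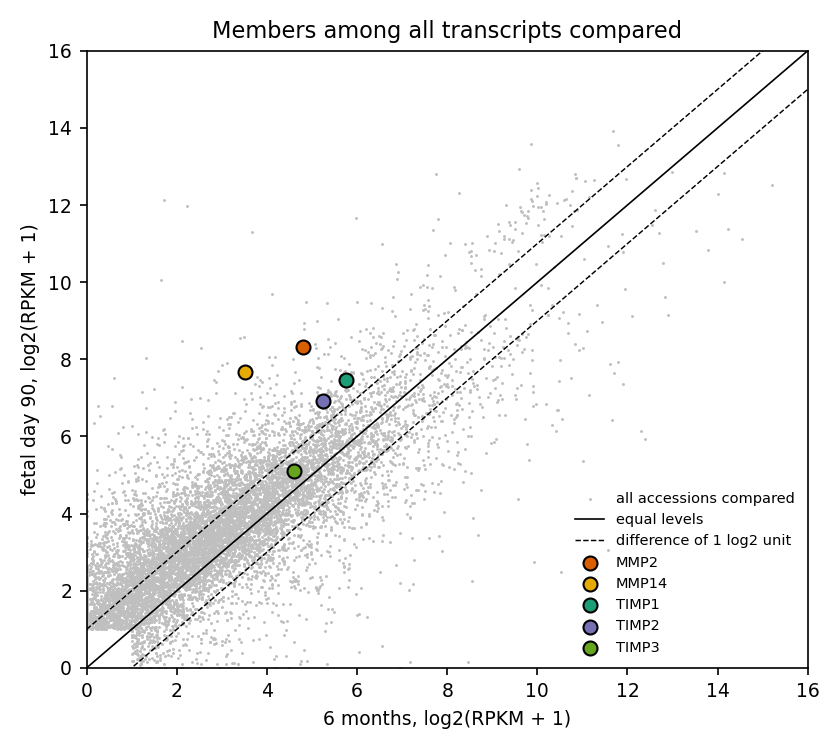
Levels in the fetal library against those at 6 months, both as log2(RPKM + 1), for all 9705 accessions compared (grey) and the 5 genes (coloured). The solid line marks equal levels and the dashed lines a difference of 1 log2 unit; MMP14 and MMP2 lie 4.15 and 3.52 units above equality, and TIMP3 lies 0.50 above it, but at -0.06 after centring on the median ratio.

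RPKM values leaned toward the fetal library in general, and this shift bears on the direction of the smallest difference. Fetal over 6-month RPKM had a median log2 ratio of 0.58 over accessions that reached an RPKM of 1 in each library, a factor of 1.49. Relative to that median, the read share ratio was 12.9 for MMP14 (interval 11.1 to 15.2), 7.95 for MMP2 (7.31 to 8.67), 2.19 for TIMP1 (1.97 to 2.45) and 2.17 for TIMP2 (1.94 to 2.43). For TIMP3 it was 0.96 (0.86 to 1.08), an interval that includes 1, so no direction can be given for TIMP3 apart from the general shift. After this centring 4 of the 5 genes kept a fetal call, against 20.9% of all accessions, and 0 were called higher at 6 months, against 16.8%. TIMP1 and TIMP2 were then close to the threshold, at 1.12 and 1.10 log2 units.

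The balance of protease and inhibitor was measured within each library, where the scaling between libraries has no effect. The ratio of summed protease RPKM to summed inhibitor RPKM was 1.58 (95% interval 1.53 to 1.64) in the fetal library and 0.33 (0.30 to 0.36) at 6 months. It was 4.84-fold higher in the fetal library (4.38 to 5.35). The reads of the proteases together were 14224 and 747, and those of the inhibitors 4499 and 1243. Their read shares were 13.6-fold (12.6 to 14.6) and 2.58-fold (2.43 to 2.75) higher in the fetal library, respectively.

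The fetal excess of proteases was not seen when either protease was left out. Without MMP2 the fetal ratio was 0.61 (0.59 to 0.64), and without MMP14 it was 0.97 (0.93 to 1.01). The interval without MMP14 includes 1, so no side was resolved there. Leaving out a protease can only lower this ratio. At 6 months the ratio stayed below 1 when any single gene was left out, and it was highest at 0.61 without TIMP1. The fold between libraries ranged from 4.12 without MMP14 to 6.70 without MMP2. The excess in the fetal library thus held for the summed pair. The direction of the difference between libraries held for every subset of 4 genes. It could not do otherwise, because each protease differed between libraries by a larger factor than each inhibitor. Leaving out genes is therefore no separate check of that direction. Other MMPs and TIMPs, which could shift either ratio, were not analysed here.

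The make-up of the 5 transcripts differed between the libraries. MMP2 supplied 37.5% of their summed RPKM (fetal) and 17.7% (6 months), and MMP14 23.8% and 6.91%. TIMP1 supplied 20.6% and 35.3%, and TIMP2 14.2% and 24.6%. TIMP3, the smallest part of the fetal sum at 3.95%, reached 15.5% at 6 months. Protease transcripts together made up 61.3% of the sum in the fetal library and 24.6% at 6 months. All 5 genes were nevertheless lower in RPKM at 6 months (for TIMP3 unresolved after centring), and the summed RPKM was 151 there against 847 in the fetal library. The larger inhibitor share thus came with a lower summed inhibitor level.

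**Figure D3:**
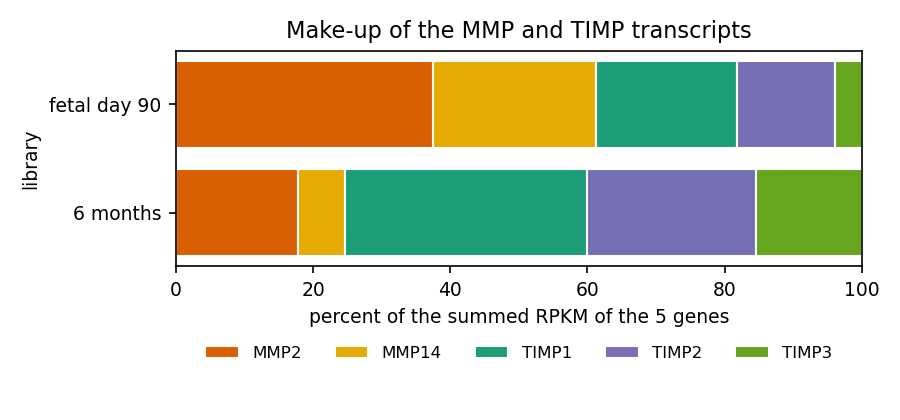
Percent of the summed RPKM of the 5 genes taken by each gene in the fetal day 90 library (upper bar) and the 6-month library (lower bar). MMP2 and MMP14 together take 61.3% of the fetal bar and 24.6% of the 6-month bar, and TIMP3 takes 3.95% and 15.5%.

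Ratios between single genes were compared for all 10 pairs. The fold between libraries of such a ratio depends neither on library scaling nor on transcript length. Each fold is the quotient of the read share ratios given above for both genes. The pairs are therefore no separate check of those differences. MMP14 to TIMP2, the pair that meets in MMP2 activation, had an RPKM ratio of 1.68 (fetal) and 0.28 (6 months), a 5.96-fold change (exact conditional interval 4.93 to 7.24). MMP2 to TIMP2 went from 2.64 to 0.72, a 3.67-fold change (3.19 to 4.22). Both ratios were above 1 in the fetal library and below 1 at 6 months.

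MMP2 to TIMP1 behaved much like MMP2 to TIMP2, with 1.82 in the fetal library and 0.50 at 6 months. MMP14 to TIMP1 was 1.16 in the fetal library and 0.20 at 6 months. The fetal excess of MMP14 over TIMP1 is the one that disappeared when levels were taken per covered base. The widest change was that of MMP14 to TIMP3, from 6.01 to 0.45, a 13.5-fold difference (11.1 to 16.4). MMP2 to TIMP3 was 9.49 (fetal) and 1.15 (6 months), an 8.28-fold difference (7.18 to 9.55).

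Within each class the genes did not move equally. Between the proteases, MMP2 to MMP14 was 1.58 in the fetal library and 2.57 at 6 months, so MMP14 was lower at 6 months by the larger factor (fold between libraries 0.61, interval 0.51 to 0.73). Between the inhibitors, TIMP1 to TIMP2 was 1.45 in the fetal library and 1.43 at 6 months. The fold of 1.01 had an interval of 0.86 to 1.18, so a change of this ratio beyond about those bounds was not seen in these libraries. TIMP1 to TIMP3 was 5.20 (fetal) and 2.28 (6 months), and TIMP2 to TIMP3 was 3.59 and 1.59. The intervals of these folds, 1.95 to 2.68 and 1.93 to 2.65, lay above 1.

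**Figure D4:**
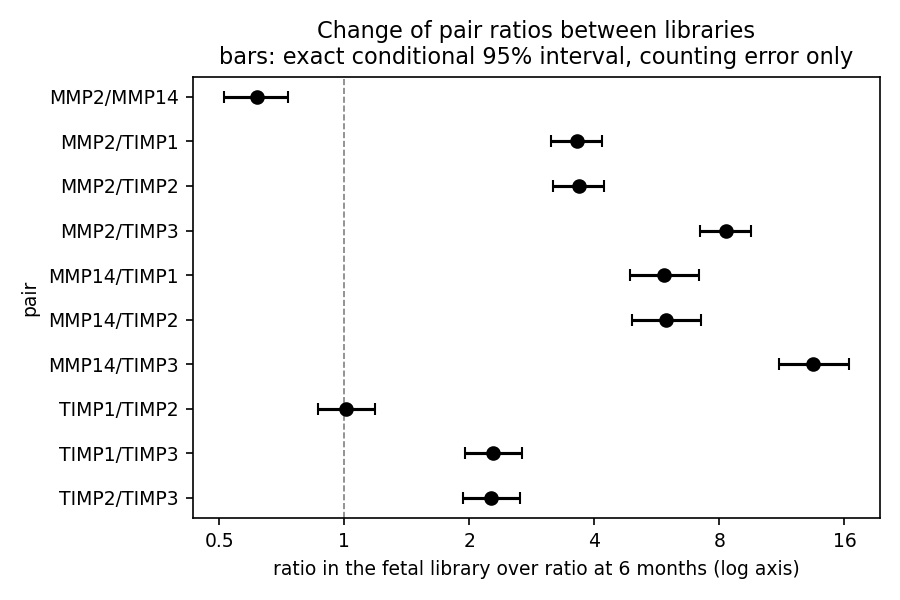
For each of the 10 gene pairs, the ratio in the fetal library divided by the ratio at 6 months (log axis), with the exact conditional 95% interval for counting error; the dashed line marks no difference. The 6 protease-to-inhibitor pairs lie between 3.63 and 13.5, TIMP1/TIMP2 lies at 1.01 and MMP2/MMP14 at 0.61. All folds follow from the read share ratios of the single genes.

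The extent to which the reads covered each listed transcript bears on the RPKM, which divides by the full length. MMP2, listed at 2350 bases, was covered over 99.6% of its length in the fetal library and 98.8% at 6 months. MMP14, of 1805 bases, was covered over 99.7% and 94.5%. Coverage was lower for the shorter inhibitors, with 85.4% and 84.3% for TIMP1 (808 bases) and 90.2% and 86.0% for TIMP2 (1152 bases). TIMP3, of 2149 bases, had 94.7% and 93.7%.

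The depth of reading was high beside these gaps. A read spanned 90 bases, so TIMP1 was read to a mean of 201 read bases per base in the fetal library and 43.8 at 6 months. Reads placed at random would have covered at least 99.98% of each of the 5 transcripts in each library. The uncovered part of TIMP1 came to 118 bases (fetal) and 127 (6 months), and that of TIMP3 to 115 and 135. TIMP2 had 113 and 161 uncovered bases. For MMP14 the uncovered part went from 5 bases at a depth of 232 to 100 bases at a depth of 8.58.

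Gaps of this size were common among all transcripts. For the 1955 accessions read to a mean depth of 20 or more in each library, coverage had a median of 89.3% (fetal) and 89.2% (6 months). TIMP1 lay below these medians in both libraries, and TIMP2 lay above the median in the fetal library and below it at 6 months. Fetal coverage was higher than that of 98.4% of these accessions for MMP2 and 98.8% for MMP14. The share was 35.6% for TIMP1, 53.7% for TIMP2 and 74.9% for TIMP3, so the genes were read unevenly. Why parts of the TIMP transcripts had no reads was not tested. With levels taken per covered base, the protease to inhibitor ratio was 1.40 (fetal) and 0.29 (6 months), a 4.80-fold difference (4.34 to 5.31). For each gene the larger coverage of both libraries was used for both, so a library's own coverage can be lower.

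**Figure D5:**
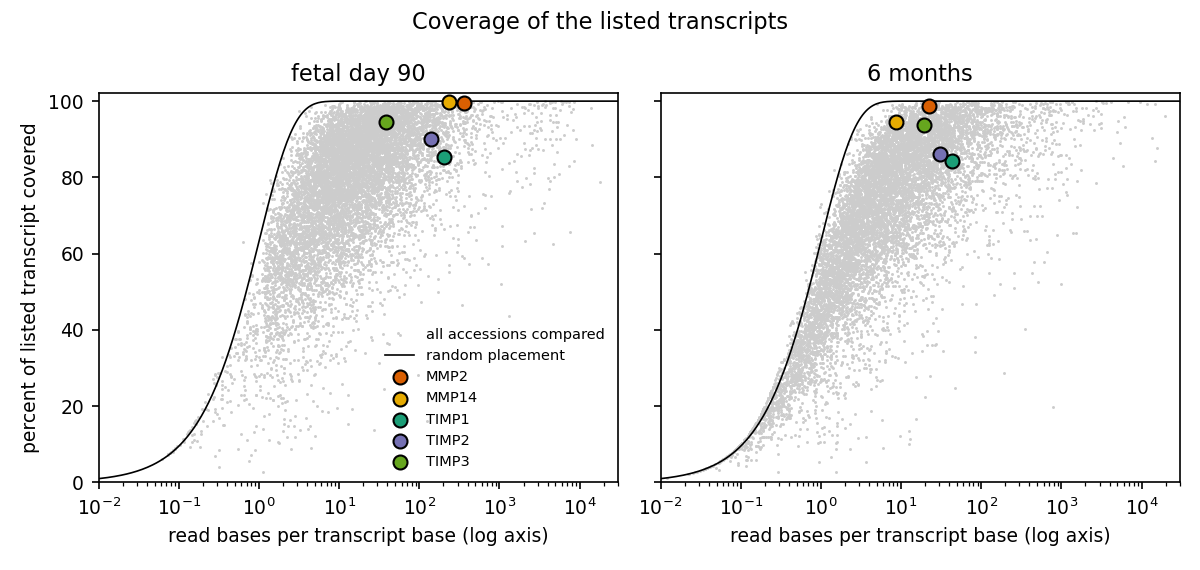
Percent of the listed transcript covered by reads against read bases per transcript base (log axis), in the fetal day 90 library (left) and the 6-month library (right), for compared accessions with reads in both libraries (grey) and the 5 genes (coloured); the line is the coverage of randomly placed reads. MMP2 lies near full coverage at 99.6% and 98.8%, while TIMP1 lies lower at 85.4% and 84.3%.

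Transcripts close to each gene in both levels were counted as a description. This count was not adjusted for abundance or for the size of the difference. It does not measure how rare a fetal excess was: 149 accessions had a larger difference than MMP2 and 70 a larger one than MMP14. Within 0.25 log2 units of the RPKM of MMP2 in both libraries there were 0 other accessions, and for MMP14 there were 2. These were NM_001025343, with an RPKM of 203 (fetal) and 10.5 (6 months), and NM_173891, with 207 and 11.2. They are named because the count was small, after their values were seen, and no gene symbol was matched to them. The same window held 22 other accessions for TIMP1, 29 for TIMP2 and 132 for TIMP3. With 2 libraries, likeness in both levels is a description and rests on no replicate.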

How the data were processed

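RNA sequencing of 2 libraries of goat longissimus thoracis, 1 fetal and 1 from 6 months of age, was used. The authors' files list, per the file headers, a read count (unique reads), a transcript length, the coverage as a percent of that length and an RPKM per RefSeq accession. No aligner, counting rule, strand setting or build is given in the sources used here. Deposited counts summed to the header totals, 12811117 reads (fetal) and 9144138 (6 months), and the RPKM was recomputed from them. A read span of 90 bases was taken from the 561 entries with 1 read, all of which matched it.

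Differences were log2(RPKM + 1), a pseudocount of 1 that understates changes of low transcripts. With 1 library per stage no test was possible. Intervals of 95% were exact binomial (RPKM, read share ratios), exact conditional (pair ratios) or, for summed RPKM, from Poisson variances on the log scale. The call rule and the intervals of read share ratios and summed RPKM ratios were tested on simulated data with counting error only. For the call rule, the simulated libraries shared 1 profile apart from planted changes. How the rule behaves under a general shift like that of these libraries was not tested. All 5 members are named. The members and the rules were chosen with earlier results of these data known. A list of other MMP, TIMP and ADAM genes and lists of cell type markers could not be used, as no accession matched a symbol. Promoter and protein sequences were not analysed here. Alternatives covered the pseudocount, minimum RPKM and reads, threshold, 4 other library scalings, length scaling and leaving out each member. Scripts ran in Python 3.11.15 with SciPy 1.17.1, NumPy 2.4.6 and pandas 2.3.3, and figures were drawn with matplotlib 3.10.9.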

Additional observations from a re-analysis of the deposited data

How the results depend on the processing

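With 1 library per stage, no library could be left out. No paired analysis was possible because each stage has a single library. Of the 5 genes, 4 were called higher in the fetal library in 9 of the 10 alternatives on scaling, pseudocount, filters and threshold, and 2 were called at a threshold of 2 log2 units. Over these alternatives the difference ranged from 3.59 to 4.26 log2 units for MMP14, from 2.95 to 3.57 for MMP2, from 1.12 to 1.71 for TIMP1, from 1.10 to 1.69 for TIMP2 and from -0.06 to 0.52 for TIMP3. TIMP3 was below 0 when centred on the median ratio or on the trimmed mean ratio. Both centrings gave nearly the same differences for all 5 genes. The alternatives on minimum RPKM and reads could not change a call of these genes, because all 5 passed each filter. The 9 alternatives with 4 calls are thus not 9 separate checks. The fold of the protease to inhibitor ratio was 5.26 on raw reads, 6.70 without MMP2, 4.12 without MMP14, 5.49 without TIMP1, 5.15 without TIMP2 and 4.28 without TIMP3. Over all accessions, the number called higher in the fetal library (3411) became 1811 with a pseudocount of 5, 2033 and 2027 with the median and trimmed mean centring and 1051 at the threshold of 2. The number higher at 6 months (918) became 655 with a pseudocount of 5, 1629 and 1632 with the median and trimmed mean centring and 339 at that threshold. Fetal calls thus outnumbered 6-month calls in each, though in the main setting they were 35.1% of the accessions compared. The 172 reads of MMP14 at 6 months set the widest interval among the read share ratios.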
